A study of Mus musculus with 2 samples.

Results

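The Indian hedgehog and PTHrP loop was followed through 9 genes, Ihh, Pthlh, Pth1r, Ptch1, Smo, Gli1, Gli2, Gli3 and Hhip, out of the 32245 gene columns of the tables. The 9 were chosen by name as the ligands, receptors, transducers and response genes of the loop, and each had a column in both tables. Single-cell RNA sequencing (10x Genomics, counted from the 3′ end) had been performed on the knee joints of female mice at 1 month of age, with 1 library per genotype. Live cells without CD31, Ter119 and CD45, the surface markers of endothelium, red cells and white cells, were sorted from the joints of 2 to 3 pooled mice per genotype. The control was Stat3fl/fl, with loxP sites in both copies of the Stat3 gene and no Cre. The mutant, called Stat3KO here, was labelled Acan-Cre+/Cre;Stat3fl/fl. Its Cre is driven from the aggrecan gene Acan, which is active in chondrocytes, and both groups carry the floxed Stat3 alleles. The study's methods describe a tamoxifen-regulated Cre (CreERT2) carried as 1 copy, with tamoxifen given in the first days after birth, so that deletion depends on Acan activity at that time. Because each genotype is 1 pool, the spread between animals is unknown and no test was possible, so each comparison describes these 2 libraries without a check by replicates. The ranges given after shares are 95% Clopper-Pearson intervals (an exact binomial method) and take in counting error alone.

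In growing cartilage, chondrocytes that stop dividing and begin to enlarge make Indian hedgehog, a secreted signal that acts through the receptor Patched 1, the transducer Smoothened and the GLI transcription factors. Parathyroid hormone-related protein (PTHrP, gene Pthlh) is made by cells nearer the joint surface and by resting cells, and acts through the receptor Pth1r to delay enlargement. The ligands form a feedback loop that sets how long chondrocytes stay in the dividing columns, and Ptch1, Gli1 and Hhip are widely read as response genes of hedgehog signalling.

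Cells were placed in 5 classes. Chondrocytes were the cells that the authors had marked, 501 in the control and 332 in the Stat3KO library. The other 4 classes were gated here on at least 3 of 6 markers above 0, and gave 139 and 91 osteoblast-gated, 272 and 44 tendon-gated, 294 and 135 fibroblast-gated, and 137 and 97 marrow stromal-gated cells. The libraries held 4903 and 1340 cells with 23576417 and 7452649 estimated UMIs (unique molecular identifiers, each standing for 1 captured RNA molecule), and the marked chondrocytes had medians of 5876 and 8595 UMIs. Every marked cell was above 0 for the cartilage genes Sox9 and Col2a1 and none held a globin UMI, whereas 512 further control cells and 3 Stat3KO cells above 0 for both genes were unmarked and all held globin. Cells with globin UMIs made up 46.8% to 68.0% of the 4 gated classes in the control and 0.741% to 8.25% in the Stat3KO library. Cells above 5% mitochondrial counts numbered 694 (14.2%) and 492 (36.7%), and 2 barcodes occurred in both libraries. The 8 genes used to check the cartilage mark summed to 71434 CPM (counts per 1000000 UMIs of the class) in control and 49058 CPM in Stat3KO chondrocytes, and none of them was at 0. The 6 osteoblast markers summed to 999 and 4605 CPM in the marked chondrocytes, with none at 0, and Bglap, which encodes the bone matrix protein osteocalcin, made up 491 and 3040 CPM of this. Stat3 itself was at 142 CPM in control and 103 CPM in Stat3KO chondrocytes, and 52.1% (47.6% to 56.5%) and 47.3% (41.8% to 52.8%) of the cells were above 0. Reads near the 3′ end carry no information on the floxed exons, so this level does not measure deletion.

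In the Gencode M21 annotation of GRCm38, Ihh spans chromosome 1 from 74945315 to 74951672, Pthlh chromosome 6 from 147252101 to 147264183, and Pth1r chromosome 9 from 110722085 to 110747145, all on the minus strand. Ptch1 (chromosome 13, 63508328 to 63573598), Gli1 (chromosome 10, 127329882 to 127341974), Gli2 (chromosome 1, 118834132 to 119053619) and Hhip (chromosome 8, 79965851 to 80058006) are also on the minus strand. Smo (chromosome 6, 29735503 to 29761365) and Gli3 (chromosome 13, 15463235 to 15730026) are on the plus strand. Promoter windows from RefSeq (GRCm38.p6) were matched by symbol for 8 of the 9 genes. The windows of the response genes Ptch1 and Hhip are printed. In control chondrocytes, Ptch1 and Hhip alone, of 8 loop genes that reached 10 CPM, stood 2-fold or more above every gated class. Of all genes, 3.42% did so. With globin-bearing cells left out, neither Ptch1 nor Hhip did. Each window is given as the 250 bases before the start, on the minus strand. Capitals mark a match to the cAMP response element TGACGTCA, the palindrome to which CREB factors bind.
Hhip, chr8:80058009-80058258: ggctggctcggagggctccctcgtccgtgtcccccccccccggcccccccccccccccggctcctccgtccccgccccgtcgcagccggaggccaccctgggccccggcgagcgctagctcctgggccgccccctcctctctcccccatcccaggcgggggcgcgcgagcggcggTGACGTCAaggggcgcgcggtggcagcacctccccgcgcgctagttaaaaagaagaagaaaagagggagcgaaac
Ptch1, chr13:63565736-63565985: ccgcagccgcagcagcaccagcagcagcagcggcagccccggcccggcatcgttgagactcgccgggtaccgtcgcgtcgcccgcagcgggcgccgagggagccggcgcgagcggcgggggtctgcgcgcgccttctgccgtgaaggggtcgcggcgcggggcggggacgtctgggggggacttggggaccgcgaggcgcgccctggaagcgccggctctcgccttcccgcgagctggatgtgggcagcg
The Hhip match begins at base 176 of the printed window, 75 bases before the start. The Ptch1 window lies inside the annotated gene, so it belongs to a start downstream of the outermost one. On both strands of all 32851 windows, TGACGTCA was found in 588 (1.79%) and the GLI motif GACCACCCA in 83 (0.253%). Among the 10 windows of the 8 matched genes, 1 held TGACGTCA and 0 held the GLI motif. The Hhip window held no GLI match that could overlap the element, and a match or its lack is a description of these letters, not of binding.

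Ihh, the hedgehog ligand, was rare and lay mostly in cartilage cells. It was at 8.70 CPM in control and 9.76 CPM in Stat3KO marked chondrocytes, from 26.7 and 29.9 UMIs. The cells above 0 were 16 of 501 (3.19%, 1.84% to 5.13%) and 9 of 332 (2.71%, 1.25% to 5.08%), so the intervals overlap. The 3 cells with most Ihh in each library held 48.6% of the control and 70.1% of the Stat3KO chondrocyte UMIs. Osteoblast-gated cells were at 4.06 CPM in the Stat3KO library, from 1 cell, and lower in the control, from 2 cells with under 2 UMIs in all, but with gates on 2 markers they reached 28.2 CPM in the Stat3KO library, above its chondrocytes, and 1.99 CPM in the control. In the tendon-gated class Ihh was at 0.718 CPM in the control and at 0 in the Stat3KO library, in the fibroblast-gated class at 0 and 0.836 CPM, and marrow stromal-gated cells were at 0 in both. The exact interval for a count of 0 reaches 2.66% of the 137 control and 3.73% of the 97 Stat3KO marrow stromal-gated cells. Of all 44.1 Ihh UMIs of the control library, 92.2% lay in cells above 0 for Sox9 and Col2a1, marked or not. In the Stat3KO library this share was 50.2% of 59.6 UMIs, and 41.8% lay in cells that no gate took. Of the 29.7 Stat3KO UMIs outside that selection, in 7 cells, 21.0 were in 1 ungated cell with 554 UMIs of Col10a1, the collagen of enlarged chondrocytes, 199 UMIs of Col2a1 and 0 of Sox9.

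Pthlh, the ligand that closes the loop, was spread over 3 of the 5 classes in both libraries. It stood at 39.8 CPM in control and 54.1 CPM in Stat3KO chondrocytes, where 47 (9.38%, 6.97% to 12.3%) and 46 (13.9%, 10.3% to 18.0%) cells were above 0. Fibroblast-gated cells were at 58.6 and 51.4 CPM and tendon-gated cells at 35.6 and 26.4 CPM. Osteoblast-gated cells, at 1.18 and 1.36 CPM, and marrow stromal-gated cells, at 1.86 and 1.90 CPM, each rested on 1 cell per library. The highest class was the fibroblast-gated one in the control and the chondrocytes in the Stat3KO library, but the ratio to the next class was 1.47 and 1.05, so the order of the leading classes is not settled by 1 library each.

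Pth1r, the receptor for PTHrP, was highest in osteoblast-gated cells of both libraries, at 365 and 295 CPM, with 65.5% (56.9% to 73.3%) and 68.1% (57.5% to 77.5%) of those cells above 0. Chondrocytes followed in the control, at 221 CPM, with marrow stromal-gated cells at 87.0 CPM. In the Stat3KO library marrow stromal-gated cells, at 150 CPM, and chondrocytes, at 141 CPM, stood next to each other. Tendon-gated cells were at 45.3 and 52.1 CPM and fibroblast-gated cells at 22.4 and 28.4 CPM.

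Ptch1 encodes the hedgehog receptor, which also rises with signalling and binds the ligand. Chondrocytes were the highest class in both libraries, at 175 and 96.3 CPM, with 250 (49.9%, 45.4% to 54.4%) and 140 (42.2%, 36.8% to 47.7%) cells above 0. Osteoblast-gated cells were at 67.9 and 36.4 CPM, marrow stromal-gated cells at 67.6 and 60.7 CPM, tendon-gated cells at 50.6 and 33.7 CPM, and fibroblast-gated cells at 31.9 and 14.8 CPM. The Stat3KO level was below the control level in all 5 classes. Smo, the transducer that Patched 1 holds in check, differed by less than 2-fold between its highest and lowest class in each library. It was highest in marrow stromal-gated cells, at 107 and 91.3 CPM, and was at 58.4 and 53.7 CPM in chondrocytes, with 29.7% (25.8% to 34.0%) and 36.4% (31.3% to 41.9%) of cells above 0. The remaining 3 classes lay between 47.2 and 72.6 CPM.

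The GLI factors differed in where they were found. Gli1, an activator whose own transcription follows signalling, was highest in chondrocytes of both libraries, at 28.3 and 11.7 CPM from 86.8 and 35.8 UMIs, with 76 (15.2%, 12.1% to 18.6%) and 31 (9.34%, 6.43% to 13.0%) cells above 0. Tendon-gated cells came next at 14.0 and 11.2 CPM, a gap of 2.02-fold in the control and 1.04-fold in the Stat3KO library. Gli2, the main activator of the first response, was highest in control chondrocytes at 23.4 CPM, and in the Stat3KO library tendon-gated cells, at 18.7 CPM from 5 cells, and chondrocytes, at 17.2 CPM, were close. Gli3, known mostly as a repressor, was highest in fibroblast-gated cells at 42.0 and 49.3 CPM, with chondrocytes at 33.4 and 26.4 CPM.

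Hhip, a membrane protein that binds hedgehog ligands and limits their reach, was highest in chondrocytes of both libraries. It was at 175 CPM in control and 67.1 CPM in Stat3KO chondrocytes, from 538 and 206 UMIs in 205 (40.9%, 36.6% to 45.4%) and 86 (25.9%, 21.3% to 31.0%) cells. These intervals do not overlap, but they take in counting error within 1 pool each, not the spread between animals. Fibroblast-gated cells were at 64.6 and 14.1 CPM, marrow stromal-gated cells at 20.3 and 11.3 CPM, and osteoblast-gated cells at 20.03 and 4.08 CPM, the last from 2.99 UMIs in 1 cell. Tendon-gated cells went the other way, at 10.9 CPM from 10 cells and 33.8 CPM from 4 cells. Between the libraries, the highest class differed for Pthlh and Gli2 and was the same for the other genes. How often it is the same over all genes was not computed. In the Stat3KO library, osteoblast-gated cells had more Ihh than chondrocytes with gates on 2 markers. With cells weighted equally, Stat3KO osteoblast-gated cells also had more Gli1, at 13.7 against 10.4 CPM. Stat3KO tendon-gated cells had more Gli1 than chondrocytes with gates on 4 markers, at 12.5 against 11.7 CPM. In cells with at most 5% mitochondrial counts, Stat3KO osteoblast-gated cells and chondrocytes were level, at 5.60 and 5.55 CPM for Ihh and 13.0 and 12.6 CPM for Gli1.

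**Figure D1:**
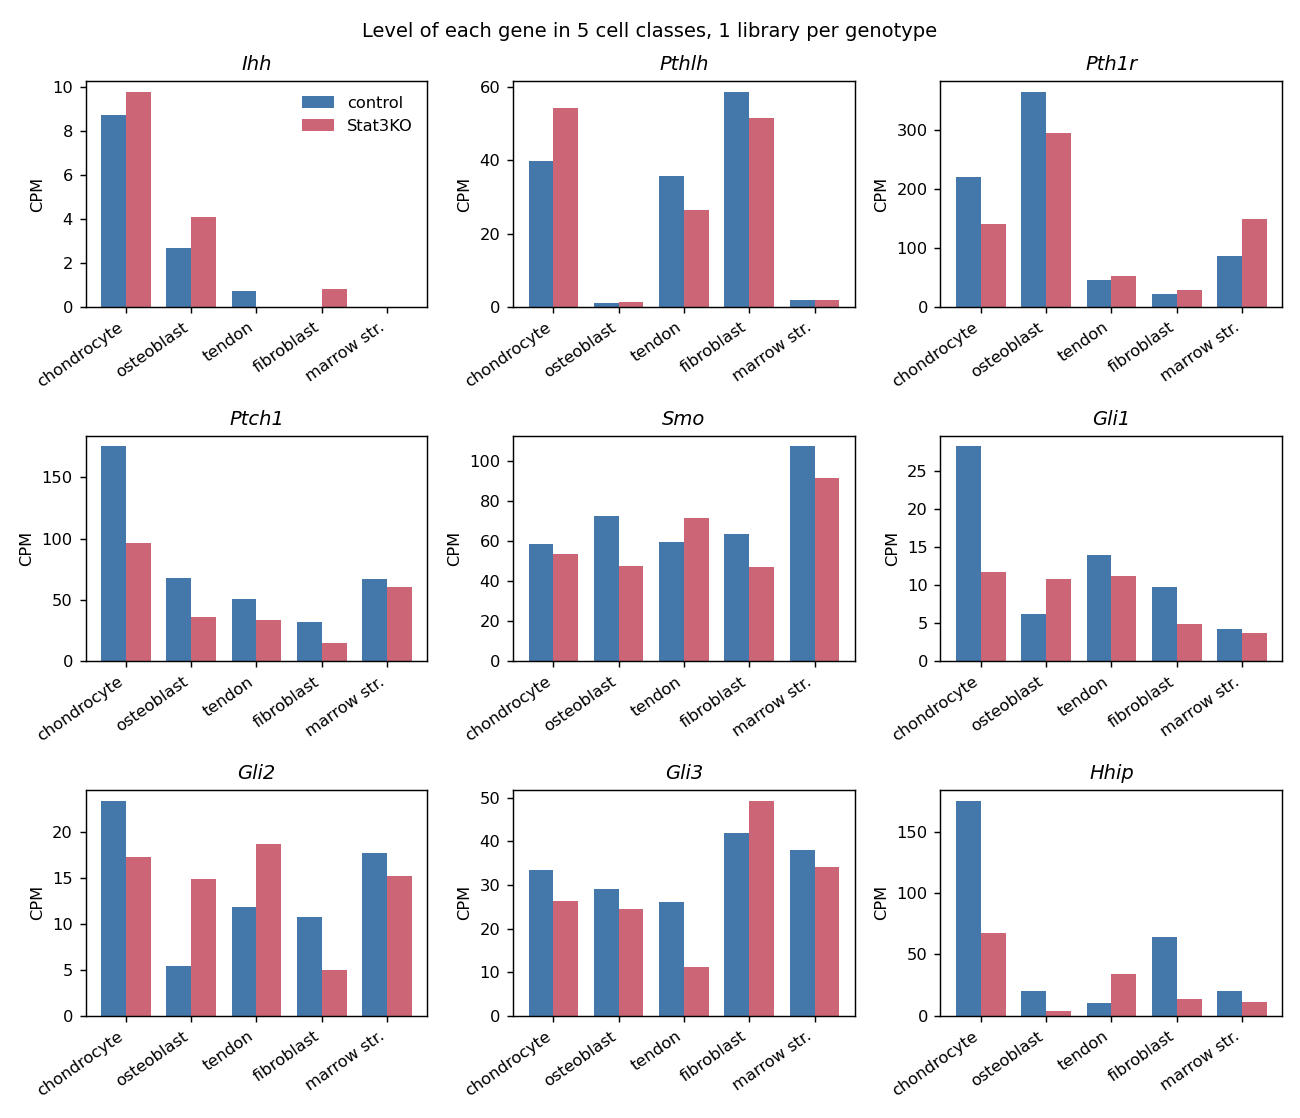
Level of each of the 9 genes in CPM (vertical axis, starting at 0, with its own scale per gene) in the 5 cell classes, with 1 bar per library (blue control, red Stat3KO) and no error bars because each genotype is 1 library. As plotted, Ihh, Ptch1, Gli1 and Hhip were highest in chondrocytes of both libraries (for Ihh and Gli1 in the Stat3KO library not under every alternative, with Ihh at 28.2 CPM in osteoblast-gated cells with gates on 2 markers), Pth1r in osteoblast-gated cells, and Pthlh was near 0 in osteoblast-gated and marrow stromal-gated cells.

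Counting how many of the genes stood at least 2-fold higher in marked chondrocytes than in each of the 4 gated classes, among genes with at least 10 CPM in any class, gave Ptch1 and Hhip in the control, 2 of 8 genes, where 3.42% of all genes did so. In the Stat3KO library the count was 0 of 8 (3.19% of all genes), and 0 of 8 met it in both libraries (2.23% of all genes). Among the 8, the nearest misses were Gli1 in the control, 0.96 above the next class on the log2 scale, and Hhip in the Stat3KO library, 0.97 above. Ihh stood 1.39 and 1.09 above the next class in the control and Stat3KO library. It was not counted because it was under 10 CPM in every class, at 8.70 and 9.76 CPM in chondrocytes. Red cell precursors, which escaped the sort in the control, gave a comparison for shares of cells. They held 12.1% of the control library's Ptch1 UMIs and 1.16% of its Hhip UMIs. Whether the Ptch1 and Smo found there were the cells' own or came from other cells was not tested. In 1580 erythroid-gated control cells, with a median of 6074 UMIs, Ptch1 was above 0 in 11.8% (10.3% to 13.5%), at 17.8 CPM, and Smo in 4.24% (3.30% to 5.35%). Ihh was above 0 in 0 of 1580, with an exact interval that reaches 0.233%, and the other 6 genes in 0.949% or less. All 9 shares in control marked chondrocytes were above these.

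The comparison of the genotypes asked whether the loop differed in chondrocytes of the Stat3KO library. The response genes were lower. On the scale of log2((Stat3KO CPM + 1)/(control CPM + 1)), Hhip was at -1.37, Gli1 at -1.21 and Ptch1 at -0.86. Pth1r followed at -0.64, Gli2 at -0.42, Gli3 at -0.33 and Smo at -0.12. Pthlh was at 0.44, higher in the Stat3KO library, and Ihh, under 10 CPM in both, at 0.15. Among the 8 genes that reached 10 CPM in either library, 2 were at least 2-fold lower (Gli1 and Hhip) where 6.63% of 8117 genes were, and 0 were 2-fold higher where 4.57% were. Lower by any amount were 7 of 8, against 62.3% of all genes, and the median of the 8 was -0.53 against -0.18 over all genes. The median ratio of the 6911 genes that reached 10 CPM in both was -0.16. Relative to it, Hhip was at -1.21, Gli1 at -1.05, Ptch1 at -0.70, Pth1r at -0.48, Gli2 at -0.26 and Gli3 at -0.17. Smo came to 0.04 and Pthlh to 0.60 on this scale.

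**Figure D2:**
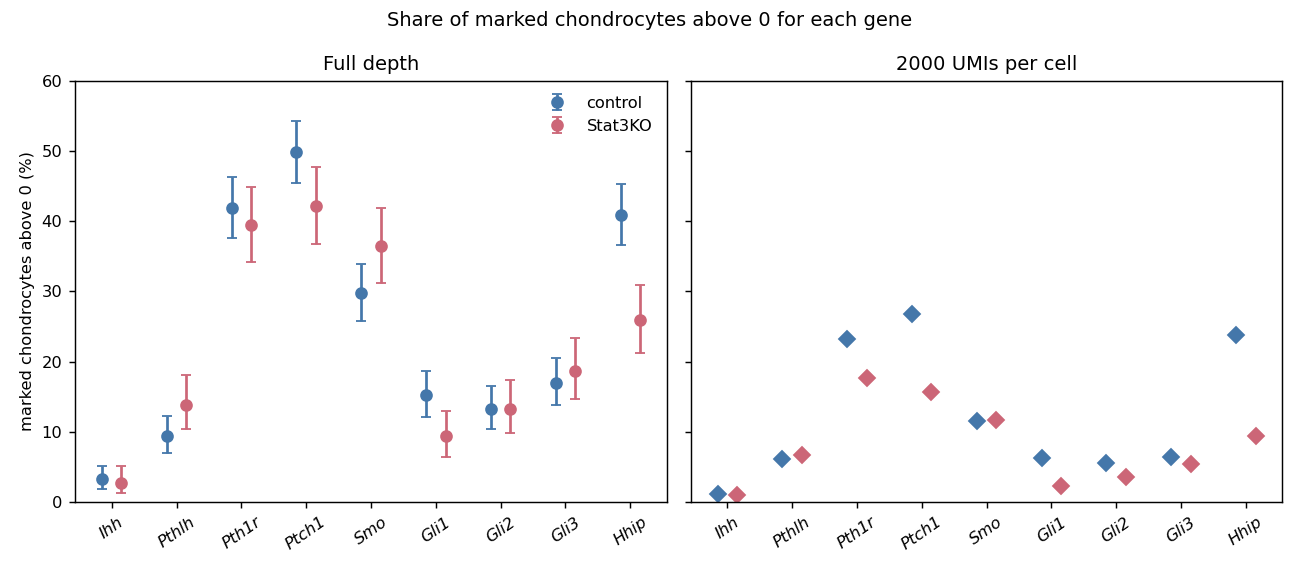
Share of marked chondrocytes above 0 for each gene (vertical axis, percent) in the control (blue, 501 cells) and Stat3KO (red, 332 cells) library, with exact 95% intervals at full depth on the left and, on the right, at 2000 UMIs per cell in 463 and 300 cells. At the common depth Hhip was at 23.8% and 9.40%, Ptch1 at 26.8% and 15.7% and Gli1 at 6.20% and 2.22%, whereas Ihh, Pthlh and Smo were close in the libraries.

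Since Stat3KO chondrocytes were more deeply sequenced, shares were also computed at 2000 UMIs per cell, with 463 control and 300 Stat3KO cells that reached this depth. The share above 0 for Hhip was then 23.8% in the control and 9.40% in the Stat3KO library, for Ptch1 26.8% and 15.7%, and for Gli1 6.20% and 2.22%. Pth1r was at 23.2% and 17.7%, Gli2 at 5.47% and 3.49% and Gli3 at 6.38% and 5.44%. Smo was at 11.5% and 11.6%, Pthlh at 6.11% and 6.67%, and Ihh at 1.04% and 0.994%. The gap that Smo showed at full depth, in favour of the Stat3KO library, was thus gone at equal depth. Counted per cell at full depth, 142 control chondrocytes (28.3%, 24.4% to 32.5%) and 145 Stat3KO chondrocytes (43.7%, 38.3% to 49.2%) had none of Ptch1, Gli1 and Hhip above 0, although the Stat3KO cells were deeper. All 3 were above 0 in 22 (4.39%, 2.77% to 6.57%) and 8 (2.41%, 1.05% to 4.69%) cells.

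Hhip, Gli1, Ptch1 and Pth1r were lower in Stat3KO chondrocytes under each of the 11 alternative choices of cells and scales that were tried. Not all of these could move the values. Taking cells with no globin UMI repeats the main values, because no marked cell held globin. Leaving out doublets dropped 6 control and 1 Stat3KO marked cells, and the growth cartilage zone was chosen after seeing the data. Hhip lay between -1.64 and -1.07, Gli1 between -1.46 and -0.82, Ptch1 between -0.87 and -0.70 and Pth1r between -0.997 and -0.38 on the log2 scale. Pthlh stayed between 0.15 and 0.71, and Ihh crossed 0, from -0.58 in cells with at most 5% mitochondrial counts to 0.48 in cells with at least 2 UMIs of both Sox9 and Col2a1. Markers of bone cells were higher in Stat3KO chondrocytes, as given above, and when marked cells with 3 or more osteoblast markers above 0 were left out, Hhip was at -1.26, Gli1 at -1.24, Ptch1 at -0.73 and Pth1r at -0.997. In cells with at most 5% mitochondrial counts the 4 were at -1.26, -1.09, -0.87 and -0.87. The unmarked, globin-bearing control cells above 0 for Sox9 and Col2a1 gave Hhip 167 CPM, Ptch1 159 CPM and Gli1 32.2 CPM, near the marked control cells, and Pth1r 135 CPM, which was nearer the marked Stat3KO cells.

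The gated classes were compared in the same way. Whether Cre had acted in them was not measured, so they do not stand for cells with intact Stat3. In the control, Acan was at 110 CPM in osteoblast-gated, 328 CPM in tendon-gated, 15.7 CPM in fibroblast-gated and 55.6 CPM in marrow stromal-gated cells. Marked control chondrocytes had 4837 CPM. In osteoblast-gated cells Hhip was lower, 1 of 7 genes where 15.1% of all genes were at least 2-fold lower, and Gli2 was higher, 1 of 7 where 5.72% were. Gli2 stood at 5.41 and 14.9 CPM there, from 4 and 9 cells. Among tendon-gated cells Gli3, at 26.1 and 11.3 CPM, was the 1 of 8 genes at least 2-fold lower (18.6% of all genes), and Hhip the 1 of 8 at least 2-fold higher (11.3% of all genes). In tendon-gated cells with at most 5% mitochondrial counts neither was past 2-fold, with Gli3 at -0.62 and Hhip lower, at -0.90 on the log2 scale. Ptch1 at -2.90 and Gli1 at -3.51 were past 2-fold lower there instead, with 28 Stat3KO cells. Fibroblast-gated cells had Ptch1 and Hhip at least 2-fold lower, at -1.05 and -2.12 on the log2 scale, 2 of 7 genes where 11% of all genes were, and 0 of 7 were higher (5.69% of all genes). Of the fibroblast-gated Hhip UMIs, 3 cells held 36.9% in the control and 85.9% in the Stat3KO library. Marrow stromal-gated cells had 0 of 6 genes lower (17% of all genes) and 0 of 6 higher (8.83% of all genes), and Pth1r stood highest at 0.78. Hhip was below 0 under all 9 alternatives in osteoblast-gated, fibroblast-gated and marrow stromal-gated cells and Ptch1 in all 4 gated classes. The median of the genes tested was -0.31 in osteoblast-gated, -0.05 in tendon-gated, -0.42 in fibroblast-gated and -0.18 in marrow stromal-gated cells, against -0.24, -0.13, -0.15 and -0.16 over all genes. The share of cells with globin differed between the libraries in all 4 classes, and its part in these values was not tested beyond leaving such cells out, which gave Ptch1 -0.998, -0.05, -1.30 and -0.66 and Hhip -2.52, 1.60, -2.63 and -1.21 in the same order of classes.

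**Figure D3:**
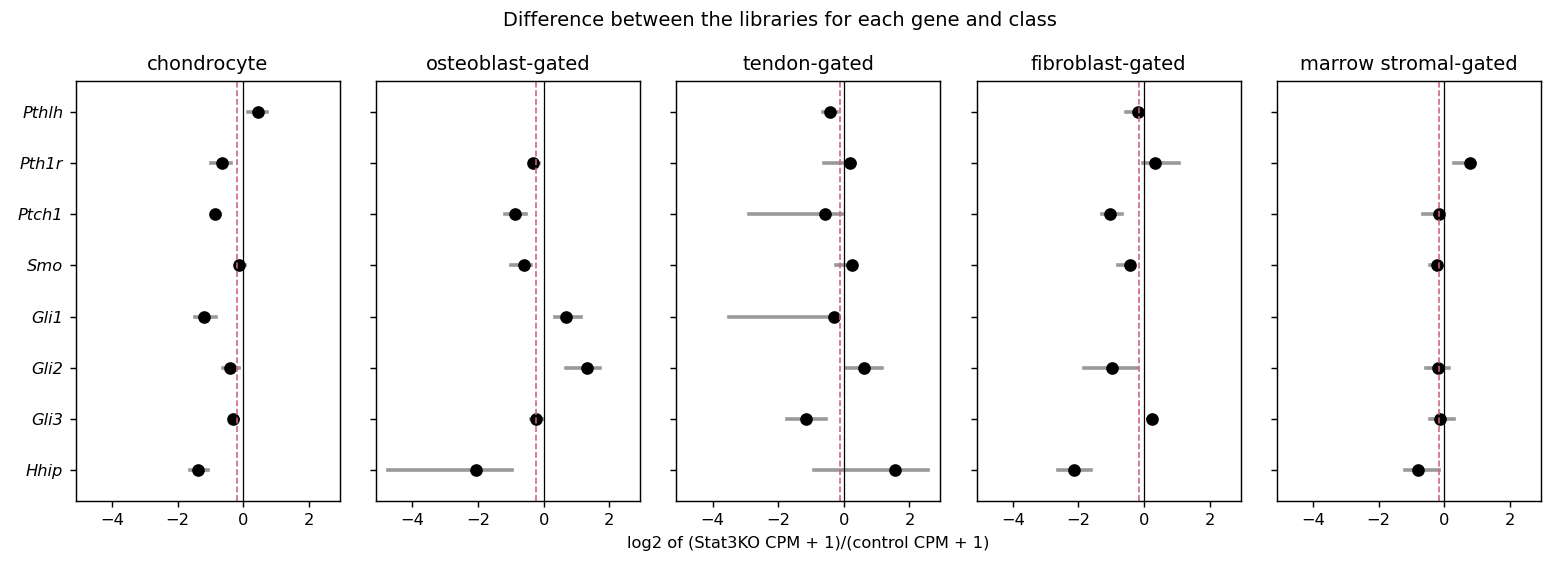
Log2 ratio of Stat3KO over control CPM + 1 (horizontal axis) for the 8 genes other than Ihh (rows) in the 5 classes (panels). Black points are the values reported, gray bars the range over the alternatives, the dashed red line the median of all genes in that class, and a row is empty where the gene was under 10 CPM in both libraries. Hhip, Gli1 and Ptch1 lay left of the median line in chondrocytes over the whole range, and the Hhip point lay right of 0 in tendon-gated cells with a range that crossed 0, down to -0.90.

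Within the marked chondrocytes, cells above 0 for each ligand were set against the other marked cells of the same library. Cells with Ihh carried Pth1r: 15 of 16 control cells (93.8%, 69.8% to 99.8%) against 195 of 485 others (40.2%, 35.8% to 44.7%), and 7 of 9 Stat3KO cells (77.8%, 40.0% to 97.2%) against 124 of 323 (38.4%, 33.1% to 43.9%). Their Pth1r level was 719 CPM against 195 CPM in the control and 680 CPM against 115 CPM in the Stat3KO library. Hhip went the other way, at 38.7 against 182 CPM in the control and 14.2 against 69.7 CPM in the Stat3KO library. Ptch1 was at 183 against 175 CPM and 113 against 95.5 CPM. The cells with Ihh were deeper than the others, with medians of 8826 against 5757 and 16201 against 8466 UMIs, and at 2000 UMIs per cell the Pth1r shares were 62.8% against 21.8% and 54.4% against 16.5%. Counts of 16 and 9 cells make each of these values coarse.

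Cells with Pthlh looked different. Pth1r was above 0 in 11 of 47 control cells (23.4%) against 43.8% of the others and in 11 of 46 Stat3KO cells (23.9%) against 42.0%, at 57.5 against 237 CPM and 45.4 against 160 CPM. Hhip was higher in them, at 276 against 165 CPM in the control and 91.5 against 62.4 CPM in the Stat3KO library. Gli1 differed in direction between the libraries, at 17.1 against 29.4 CPM in the control and 29.8 against 8.15 CPM in the Stat3KO library, from 5 and 10 cells. Both ligands were above 0 in 1 control and 2 Stat3KO cells. Most cells with Pthlh thus had no Pth1r UMI, and most cells with Ihh had one. Cells with Pth1r and Hhip together numbered 79 and 29, with Pth1r alone of the pair 131 and 102, and with Hhip alone 126 and 57. In cells above 0 for Hhip, Pth1r was at 121 CPM against 297 CPM in the other control cells and at 45.3 against 191 CPM in the Stat3KO library.

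**Figure D4:**
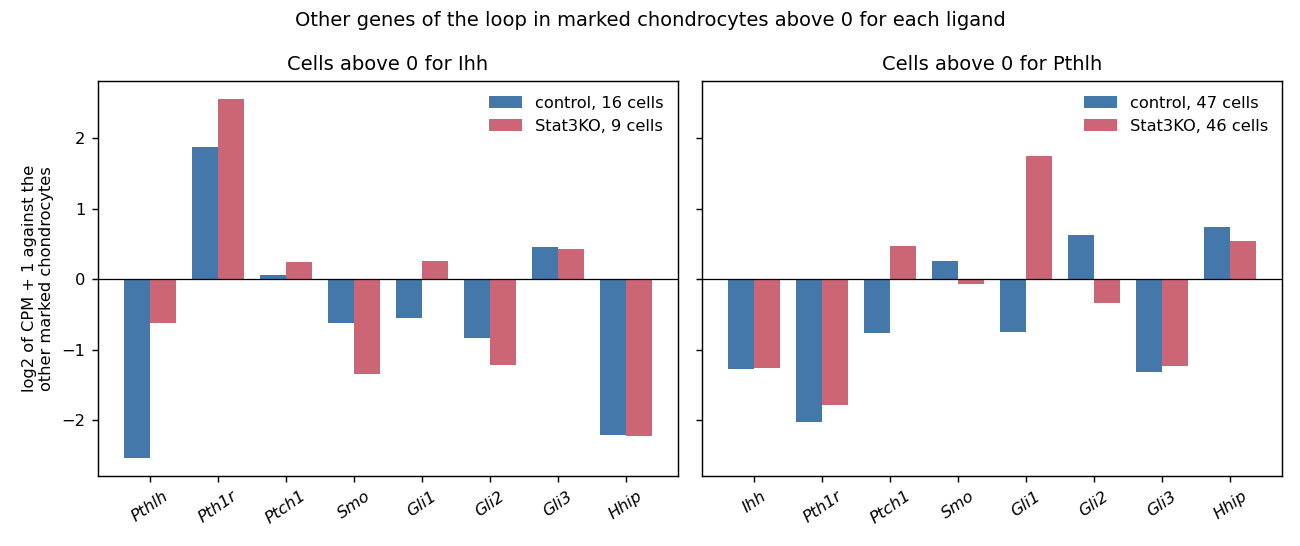
Log2 ratio of CPM + 1 (vertical axis) in marked chondrocytes above 0 for Ihh (left) or Pthlh (right) against the other marked chondrocytes of the same library, for the other 8 genes, in the control (blue) and Stat3KO (red) library. In cells with Ihh, Pth1r was at 1.88 and 2.55 and Hhip at -2.21 and -2.22, and in cells with Pthlh, Pth1r was at -2.03 and -1.79 and Hhip at 0.74 and 0.55.

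The genes that went most with each ligand in both libraries were ranked on the lower of the 2 log2 ratios. With Ihh they were Panx3, a channel protein of prehypertrophic chondrocytes and osteoblasts, at 916 against 120 CPM in the control and 382 against 45.0 CPM in the Stat3KO library, then Grb14, H2-DMa, E130309D02Rik, Smpd3, Slc35c1, Ndufaf6 and C430049B03Rik. Smpd3, a sphingomyelinase needed for cartilage and bone mineralization, was at 1874 against 412 CPM and 1147 against 232 CPM. With Pthlh they were Met, the receptor for hepatocyte growth factor, at 51.7 against 15.4 CPM and 55.7 against 21.0 CPM, then Sulf2, Sphk1, Bnc2, Dab2ip, Arhgef28, Nedd4l and Dab2. On the log2 scale the ratios of the Pthlh genes ran from 0.99 to 1.77 and those of the Ihh genes from 1.98 to 3.06. Each list holds the extremes picked from unlike numbers of cells, so the sizes of the ratios cannot be compared between the ligands. These lists are descriptions of 16, 9, 47 and 46 cells.

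Position within cartilage was described by gating marked cells on zone markers, which gave 402 and 219 growth cartilage, 35 and 22 articular and 4 and 16 maturing cells, with 60 and 75 in no zone. In the growth cartilage zone Hhip was at 173 and 81.8 CPM, Ptch1 at 189 and 105 CPM, Gli1 at 26.8 and 11.6 CPM and Pth1r at 219 and 130 CPM, and Pthlh was at 37.9 and 62.6 CPM. All 16 control cells with Ihh and 7 of the 9 Stat3KO cells were in this zone. Articular cells had less Ptch1, at 40.8 and 49.2 CPM, and less Pth1r, at 69.1 and 48.5 CPM, than growth cartilage cells in both libraries. Their Hhip level of 210 CPM in the control came to 83.4% from 3 cells, and was 43.0 CPM in the Stat3KO library. Maturing cells had Pth1r at 615 and 433 CPM, and neither Hhip nor Pthlh was above 0 in any of them. Taking instead every cell with at least 10 UMIs of Col10a1, marked or not, gave 13 control and 7 Stat3KO cells, of which 3 and 2 were marked and 8 and 3 had no Sox9. They had Pth1r at 1007 and 754 CPM and Ihh at 128 and 335 CPM, each from 2 cells for Ihh, Ptch1 at 13.8 and 27.8 CPM from 1 cell each, and 0 UMIs of Gli1, Gli2 and Hhip. With so few cells, the exact interval for 0 of the 4 control maturing cells reaches 60.2%.

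The other genes of the pathway were described from lists, in marked chondrocytes and among genes with at least 10 CPM in either library, beside a median of -0.18 over all genes. Of all genes there, 62.3% were lower by any amount, 6.63% at least 2-fold lower and 4.57% at least 2-fold higher, and the counts of each list stand beside these shares. Of 26 further Hedgehog pathway genes 11 reached that level, 3 higher and 8 lower, 0 past 2-fold, with a median of -0.40. Among the higher ones were Gas1, a co-receptor, at 0.53 and Evc2, a cilium base protein that works with Smoothened, at 0.44. Mgrn1, a ubiquitin ligase that acts against Smoothened, was lowest at -0.93, followed by Btrc, which takes part in GLI processing, at -0.82 and Scube2, which helps ligand release, at -0.80. The ligands Shh and Dhh were at or under 1.60 CPM. In the gated classes 12 of 14, 10 of 14, 13 of 15 and 11 of 15 genes of this list were lower in osteoblast-gated, tendon-gated, fibroblast-gated and marrow stromal-gated cells, where 63.7%, 55.4%, 59.5% and 57.6% of all genes were. Vertebrate hedgehog signalling runs through the primary cilium, and of 16 cilium genes 11 were counted, 2 higher and 9 lower, with 3 past 2-fold lower and a median of -0.66. Those 3 were the transport protein Ift172 at -1.64, the transition zone protein Rpgrip1l at -1.35 and Tulp3, which carries receptors into the cilium, at -1.18. Arl13b was highest at 0.18, with Ift52 at 0.06 and Dync2h1 at -0.32. The lower cilium genes were not particular to chondrocytes. In the gated classes 6 of 10, 7 of 11, 9 of 11 and 11 of 13 genes of this list were lower, in the same order. Their medians were -0.37, -0.27, -0.64 and -0.74, and 2, 2, 1 and 5 genes were past 2-fold lower. Of all genes, 15.1%, 18.6%, 11% and 17% were past 2-fold lower in these classes.

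Downstream of Pth1r, 19 of 25 genes were counted, 4 higher and 15 lower, with a median of -0.25. Ramp2, a receptor partner, was the 1 past 2-fold higher at 1.19, with Adcy3 at 0.66 and Prkar2a at 0.43, and Hdac4, a repressor of hypertrophy, was the 1 past 2-fold lower at -1.26, with Zfp521 at -0.76 and Creb1 at -0.60. Gnas, which encodes the stimulatory G protein that the receptor uses, was at 2105 and 2128 CPM. Of 16 genes reported as hedgehog responses in skeletal cells, 9 were counted, 6 higher and 3 lower, 2 past 2-fold higher, with a median of 0.10. These were Spp1, osteopontin, at 2.71 and Bmp2 at 1.08, with Tgfb2 next at 0.43, and the lower ones were Ccnd1 at -0.45, Ccnd2 at -0.39 and Bcl2 at -0.19. Of 13 maturation genes 12 were counted, 7 higher and 5 lower, 5 and 2 past 2-fold, with a median of 0.51. Spp1 at 2.71, Col10a1 at 2.35 and Cd200 at 1.76 were highest, whereas Runx3, a factor that promotes maturation, at -1.39 and Panx3 at -1.38 were past 2-fold lower and Runx2 was at -0.52. Spp1 is on both lists and is also a bone gene, and the osteoblast markers given above were higher in these Stat3KO cells. Their part was not tested. Of 10 genes of dissociation stress 3 were higher and 7 lower, 0 past 2-fold, with a median of -0.11. Junb was at 0.63, Dusp1 at 0.30 and Fos at 0.05, and Jun at -0.92, Atf3 at -0.69 and Fosb at -0.64.

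Likeness to the pattern over the 10 points of 5 classes in 2 libraries was measured by Pearson's r of log2(CPM + 1) over 5220 genes, as a description in which points of a library share its depth and 1 class can set the value. Ptch1 was most like Fry (r = 0.97), Emilin1 and Scarb1, and Hhip most like Abhd2 (0.96), Epb41l1 and Farp1. Gli1 was most like Fasn (0.92), Mapre3 and Kank1. Pth1r was most like Cadm1 (0.96), Pak1 and Sp7, the last an osteoblast marker used in the gate. Pthlh was most like Mmp3 (0.97), Anxa4 and Prnp, and Ihh, with few UMIs in any class, most like Golph3 (0.97), Bmp7 and Rps25.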

How the data were processed

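Knee cells of 2 libraries, 1 per genotype as labelled, were analysed. The authors used Partek Flow and STAR 2.7.3a (mm10), collapsed UMIs and corrected ambient RNA with SoupX (R 4.0.3). Per cell, they deposited log2(CPM + 1) for each gene, a total that is an estimated count, a mitochondrial percent and, as a score, the number of genes above 0. The authors' methods name a mitochondrial limit, but cells above 5% are in the tables.

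Estimated UMIs were recovered from value and total (74.9% and 97.3% of values within 0.1 of whole), so no count model was used. UMIs were summed per class and scaled to CPM. Log2 ratios used a pseudocount of 1 CPM, and genes with at least 10 CPM in either library were counted. Members, markers, lists and alternatives were chosen with earlier results of these data known. The text names all members, the 3 highest and 3 lowest genes of each list, and genes ranked by likeness (3, minimum 50 CPM in any class) or with each ligand (8, above 0 in at least 20% of ligand cells in both libraries). A gene that this rule would name is not reported here. Other genes were named after their values were seen. Cells above 0 for both Sox9 and Col2a1 entered no gate, and ties stayed ungated. Gated were osteoblast, tendon, fibroblast, marrow stromal, mural, erythroid, immune, endothelial and muscle cells. In all, 1382 control and 572 Stat3KO cells were ungated. Doublets, called with Scrublet in scanpy 1.11.5 at an expected rate of 0.05, were kept in the main values. Scrublet marked 74 control cells (1.51%) and 2 Stat3KO cells (0.149%), so whether it worked in the latter is unknown. The ratio calculation was run on simulated data in which only well-expressed genes were changed and cells did not differ. That run does not cover members at low levels or held by few cells, such as Ihh. Python 3.11.15, pandas 2.3.3, numpy 2.4.6 and scipy 1.17.1 were used.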

Additional observations from a re-analysis of the deposited data

Results flagged for a closer look

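In marrow stromal-gated cells Pth1r had a log2 ratio of 0.78, higher in the Stat3KO library, where marked chondrocytes had -0.64. Hhip in tendon-gated cells had 1.55 where chondrocytes had -1.37, from 4 Stat3KO cells, but was at -0.90, the same direction as chondrocytes, in cells with at most 5% mitochondrial counts. With all cells, each went the opposite way from the chondrocytes of the same libraries, and with 1 library per genotype the difference between classes was not tested. Ihh was at 15.6 CPM in the ungated cells of the Stat3KO library against 0.167 CPM in the control, with 21.0 UMIs in 1 cell. Ptch1 was at 17.8 CPM in the erythroid-gated cells of the control library, outside the 5 classes compared, and these cells held 12.1% of that library's Ptch1 UMIs.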

How the results depend on the processing

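No paired analysis was possible because each genotype is 1 library, and for the same reason no replicate could be left out. Of the genes 2-fold apart between genotypes, 2 in each class but 0 in marrow stromal-gated cells, a pseudocount of 10 CPM left 1 in chondrocytes, osteoblast-gated, tendon-gated and fibroblast-gated cells, and no other alternative moved the chondrocyte count. Gates on 2 markers left 1 in tendon-gated and fibroblast-gated cells and gave 1 in osteoblast-gated cells, Ihh with 1.99 CPM (control) against 28.2 CPM (Stat3KO), in place of Hhip and Gli2. Gates on 4 markers gave 4 in tendon-gated and 1 in marrow stromal-gated cells. Cells with no globin UMI gave 1 in osteoblast-gated, 5 in fibroblast-gated and 1 in marrow stromal-gated cells. The 5 were Pth1r, higher in the Stat3KO library, and Ptch1, Gli1, Gli2 and Hhip, lower. Equal weighting of cells left 1 in osteoblast-gated cells, scaling to the median ratio left 1 in fibroblast-gated cells, and cells with at most 5% mitochondrial counts gave 4 in osteoblast-gated cells. In the tendon-gated class with at most 5% mitochondrial counts Hhip turned to -0.90 on the log2 scale. The genes past 2-fold there were Ptch1 and Gli1, in place of Gli3 and Hhip. The share of all genes past 2-fold was not computed under the alternatives, so these counts have no background. Some classes were small there, with 94 control fibroblast-gated cells without globin and 22 Stat3KO tendon-gated cells with gates on 4 markers.

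Of the genes at least 2-fold higher in chondrocytes than in each gated class, the control count of 2 became 0 in cells with no globin UMI. The Stat3KO count of 0 became 2 with median-ratio scaling, with at least 2 UMIs of Sox9 and Col2a1, without marked cells with 3 osteoblast markers and in the growth cartilage zone (the last chosen after seeing the data), and 1 with equal weighting, at most 5% mitochondrial counts or no minimum level. The count for both libraries, 0, became 2 in the growth cartilage zone and 1 under the other 6. Where the Stat3KO count became 2, Ihh passed the minimum of 10 CPM in Stat3KO chondrocytes, at 10.9, 11.3, 10.0 and 10.8 CPM in the order named. Hhip, at 0.97 on the log2 scale in the main values, passed 2-fold in the same settings. In the growth cartilage zone control Ihh was also above the minimum, at 10.05 CPM. These counts thus moved because values near a cut crossed it. Why the levels differed between the settings was not tested, and the share of all genes was not computed under these alternatives. Among values of single genes, 485 stayed within the limits set, 36 moved and 1 reversed. The limits are not given here, so the 485 is no measure of how stable the values were. Values from few cells could vary widely. Pthlh in osteoblast-gated cells, from 1 cell per library, lay between -1.19 and 1.25 on the log2 scale over the alternatives. The 485 include the values of marked chondrocytes with no globin UMI, which could not move.

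The precision is limited by few cells. Ihh rests on 16 and 9 chondrocytes, the tendon-gated class of the Stat3KO library on 44 cells, and genotype cannot be told apart from library, pool or sort.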
